A study of Arabidopsis thaliana with 6 samples.

Results

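The plastid genome of *Arabidopsis thaliana* was followed in whole seedlings after 30 min with the chitin 4mer. The genes were those that lie on the plastid chromosome in the gene table and have a probe set pairing with 1 gene only. Of 78 protein-coding gene names on that chromosome, 69 met this rule, each with 1 probe set, out of 13286 genes named on the array and 22746 probe sets in all. A further 7 genes have probe sets that pair with both of their entries in the table, the rest are not analysed here, and no tRNA or rRNA gene is among the 69. All seedlings were of ecotype Col-0, 14 days old, and had grown in shaken liquid medium under constant light with many plants to a flask. The 4mer group received the chitin tetramer at 100 µg/mL and the mock group an equal volume of water, with 3 biological replicates and 3 Affymetrix ATH1 arrays in each group.

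The plastid is the cell compartment that carries out photosynthesis, and its small genome is a remnant of the cyanobacterium from which it descends. It encodes core subunits of photosystem I (psa), photosystem II (psb), the cytochrome b6f complex (pet), the ATP synthase (atp) and the NADH dehydrogenase-like complex (ndh), along with the large subunit of Rubisco, ribosomal proteins (rpl, rps) and an RNA polymerase (rpo). Most of its genes are read in clusters as long joint transcripts that are later cut and trimmed, and a second, nuclear-encoded polymerase reads some of them. Plastid mRNAs carry no lasting poly(A) tail, and short tails there mark RNA for decay. The label of these arrays was made from poly(T) primers, so a probe set reads those plastid RNAs that such primers reach, and a difference in RNA amount cannot be told apart from a difference in tailing. In whole seedlings, less green tissue and less RNA per plastid cannot be told apart either.

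Levels are signals given as multiples of the median signal of the same array. A level is compared between arrays for 1 gene and never between genes, since probe sets differ in their response. The 3 marker genes *psaA*, *atpA* and *atpF* were all above the array median in every array. Among the 69 genes, 36 were above 10 times the array median in every array, and 4 (*ndhF*, *petD*, *rpoB* and *rps14*) were below the median in every array.

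Mock replicate 1 stood apart before any comparison. Over the 17289 probe sets with a mean of at least 0.25, its log2 signal correlated with the other arrays at 0.954 to 0.959, where the other pairs lay at 0.982 to 0.990. In the plastid genes mock replicate 1 was the lowest of the 6 arrays in 33 genes (47.8%), the highest in 29 (42.0%) and between the others in 7. Over all probe sets it was the lowest in 23.8% and the highest in 37.3%. Bright probe sets, the 1366 above 10 times the array median in every array, were added after seeing the data. Among them mock replicate 1 was the lowest in 18.2% and the highest in 61.7%. Of the 36 plastid genes in this bright set it was the lowest in 30.6% and the highest in 61.1%. Its share at the top there was close to that of all bright probe sets. Fold changes of the plastid genes are therefore given with and without this array.

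With all 6 arrays, 50 of the 69 plastid genes (72.5%, beside 47.7% of all probe sets) had a higher mean log2 level with the 4mer and 19 a lower one, and none of them passed the test. The median log2 fold change was 0.10, against -0.01 over all probe sets. A gene passed where its p from limma, adjusted by the Benjamini-Hochberg method for all probe sets on the array, was under 0.05. Of all probe sets 0.101% passed, 0.0659% as higher and 0.0352% as lower. The smallest adjusted p of a plastid gene was 0.158, for *atpF*. At an unadjusted p under 0.05, 9 plastid genes (13.0%) were higher and 0 lower, beside 4.54% higher and 6.86% lower over all probe sets. The 9 became 2 without 4mer replicate 3, 3 without 4mer replicate 2 and 21 without mock replicate 3, and lower genes then numbered at most 2. For these 3 fits the share of all probe sets is not given, so the counts show only how far the 9 moved. The groups lay wholly apart, the 4mer arrays on top, in 11 genes (15.9%, beside 7.86% of all probe sets), and the 4mer arrays lay wholly below in 0 genes, beside 12.5%.

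Without mock replicate 1, 58 genes were higher (84.1%, beside 50.3% of all probe sets) and 11 lower, with a median log2 fold change of 0.14 against 0.00188 over all probe sets. Here 1 of the 69 genes passed, *rpl20*, which was higher with the 4mer. Of all probe sets 1.49% passed in either direction, 0.8% as higher and 0.686% as lower. Thus 1 of 69 is close to the share over all probe sets in either direction. At an unadjusted p under 0.05, 26 genes (37.7%) were higher, beside 7.73% of all probe sets, and 1 gene, *accD*, was lower, beside 9.67%. In 28 genes (40.6%) every 4mer array was above both remaining mock arrays, beside 16.5%, and *accD* was the 1 gene with every 4mer array below them, beside 19.1%. The direction was the same with and without this array for most genes, while 11 genes turned from lower to higher and 3 from higher to lower. Quantile normalization of these 5 arrays was an alternative chosen after seeing the data. With it 5 of the 69 genes passed, all higher, namely *atpA*, *atpF*, *atpH*, *petL* and *rpl20*. Of all probe sets 1.04% passed as higher in that setting.

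**Figure D1:**
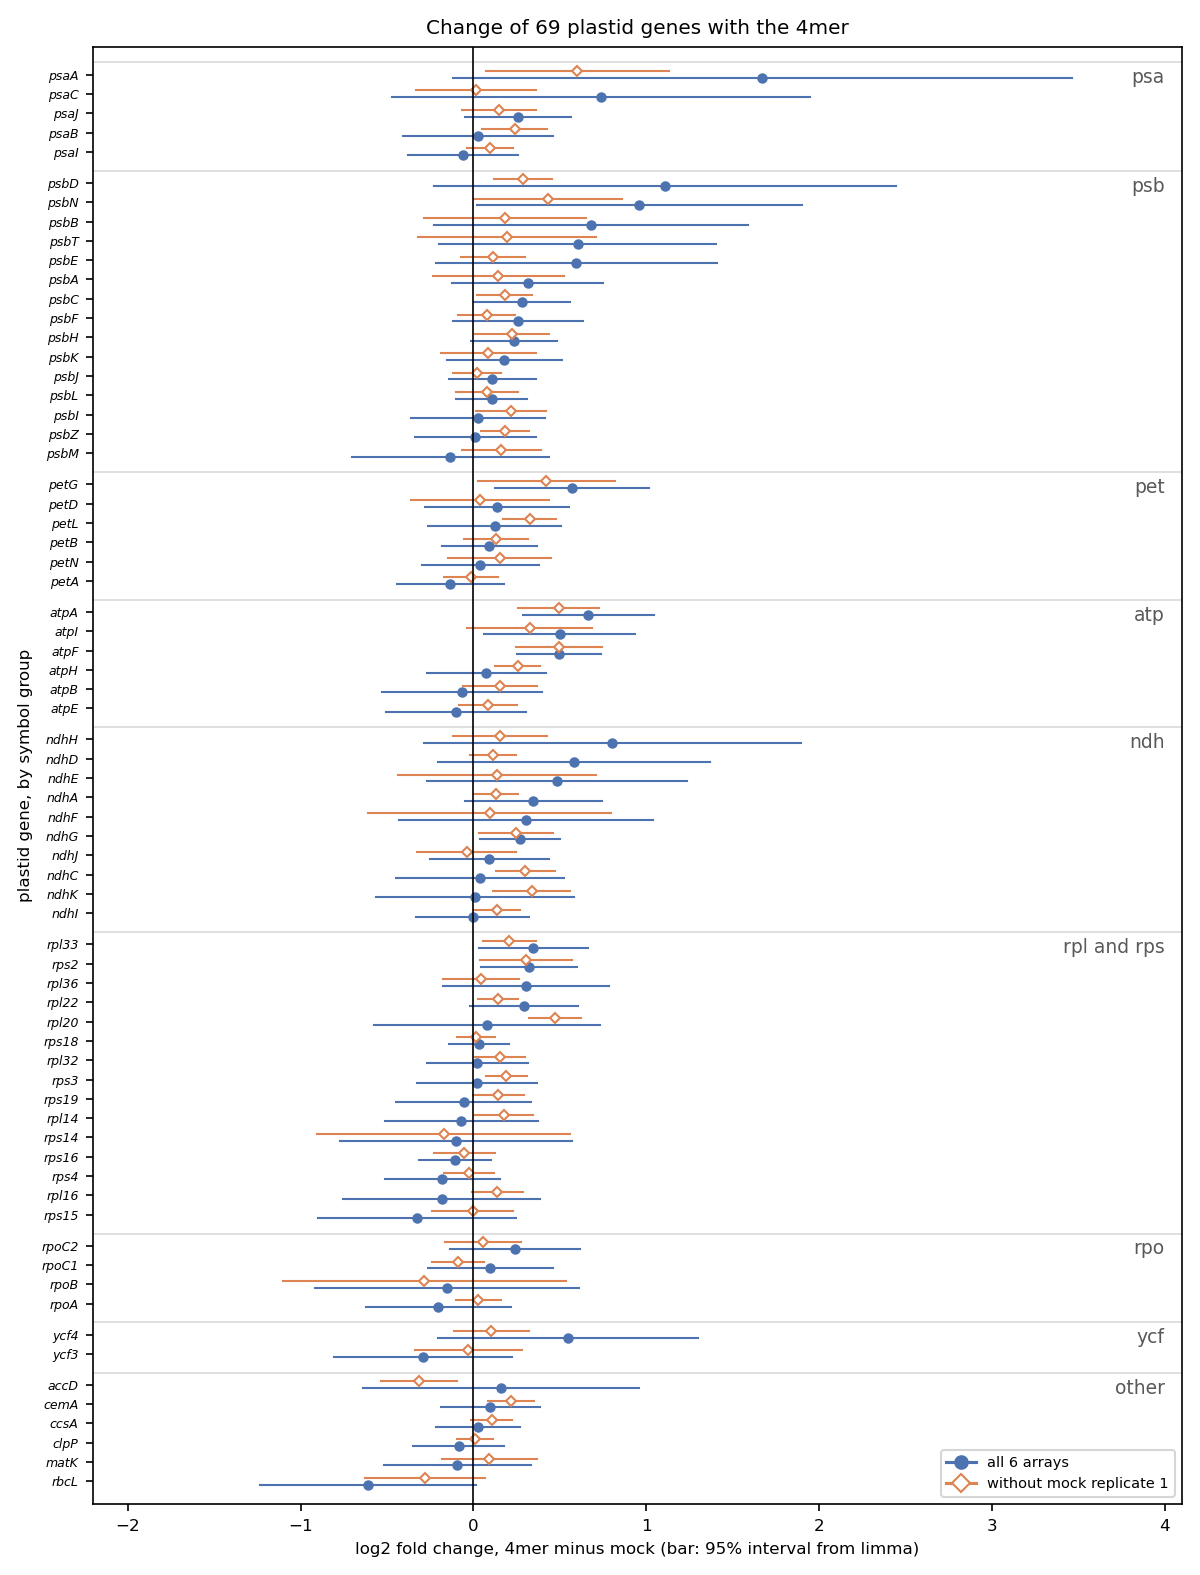
Log2 fold change (4mer minus mock) of the 69 plastid genes by symbol group, with all 6 arrays (filled circles) and without mock replicate 1 (open diamonds); bars are 95% intervals from limma. Most points lie to the right of 0, with medians of 0.10 and 0.14, and the long intervals of *psaA*, *psbD* and *ndhH* shrink once mock replicate 1 is left out.

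The sizes of the differences depended on mock replicate 1. With all arrays, 9 genes were at least 1.5-fold higher by the size of the change alone and 1, *rbcL*, was at least 1.5-fold lower, beside 6.23% and 5.68% of all probe sets. Without mock replicate 1 only *psaA* was at least 1.5-fold higher, beside 7.66% of all probe sets, and 0 genes were 1.5-fold lower, beside 4.77%. All 69 genes had a mean of at least 0.25, and probe sets at that level were set beside them after seeing the data. Of these 17289 probe sets, 409 were 1.5-fold higher and 267 lower with all arrays, and 376 and 221 without mock replicate 1. The 95% interval of the log2 fold change lay wholly within 1.5-fold in either direction for 35 genes with all arrays (50.7%, beside 47.3% of all probe sets) and for 55 genes without mock replicate 1 (79.7%, beside 55% of all probe sets). For the probe sets with a mean of at least 0.25 these shares were 62.3% and 72.3%. For those above 10 times the array median in every array they were 87.3% and 99.0%, and 75% and 97.2% for the plastid genes among them.

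Many plastid genes are bright, so the same values were set beside bright probe sets only, a choice made after seeing the data. Of the 1366 probe sets above 10 times the array median in every array, 33.6% had a higher mean with the 4mer, and of the 36 plastid genes among them 66.7% did. Without mock replicate 1 these shares were 53.7% and 91.7%, and the median log2 fold changes were 0.01 and 0.14. In the 36 plastid genes, 20 had both remaining mock arrays below every 4mer array (55.6%), beside 21.6% of the bright probe sets. These shares describe the genes and carry no test.

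By array, the median level of the 69 genes was 12.9, 16.2 and 17.6 in the mock replicates 1 to 3 and 19.4, 19.3 and 21.4 in the 4mer replicates 1 to 3. The groups did not overlap in this median, which is taken across genes whose probe sets differ in response. Each gene's log2 level was also taken relative to its own mean over all arrays. The median was then -0.147, -0.103 and -0.024 in mock and -0.0026, 0.037 and 0.130 in 4mer arrays. Mock replicate 3 and 4mer replicate 1 thus lay close together. Genes above their own mean numbered 31, 17 and 32 in mock and 34, 41 and 62 in 4mer arrays. The share of the summed signal of all probe sets that fell on the 69 genes was 1.85%, 1.70% and 1.79% in mock and 1.87%, 1.89% and 2.02% in 4mer arrays. Here too the groups did not overlap, but mock replicate 1 and 4mer replicate 1 lay close together. In the summed level the groups did overlap, since mock replicate 1, at 1419.9, lay above 4mer replicates 1 and 2, at 1311.6 and 1276.8. 4mer replicate 3 was the highest array in 24 of the 69 genes and the lowest in 0.

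The ATP synthase makes ATP from the proton gradient across the thylakoid membrane, and 6 of its subunits were measured. In this group *atpA*, the alpha subunit of the catalytic head, was at 13.7, 20.8 and 18.6 in the mock replicates 1 to 3 and at 27.2, 24.6 and 31.5 in the 4mer replicates. Its groups did not overlap. The mean went from 17.7 ± 3.61 (SD, n = 3) to 27.8 ± 3.46 (SD, n = 3), a log2 fold change of 0.67 (95% interval 0.28 to 1.05, adjusted p = 0.209), and 0.49 without mock replicate 1 (adjusted p = 0.0660). With all arrays it was the only bright probe set, of the 1366 above 10 times the median in every array, with a change of at least 1.5-fold upward. Without mock replicate 1, 0 bright probe sets rose that far, and the largest log2 fold change among them was 0.58, above that of *atpA*. Beside *atpA* on the chromosome lies *atpF*, which encodes a subunit of the stalk that holds the head. Its levels were 3.77, 4.17 and 3.44 in mock and 5.49, 4.77 and 5.81 in 4mer arrays, again without overlap. The log2 fold change was 0.50 with all arrays (95% interval 0.25 to 0.74, adjusted p = 0.158) and 0.49 without mock replicate 1 (adjusted p = 0.0743).

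The next genes of the same cluster, *atpH* for the membrane ring and *atpI* for the proton channel, were less clear. *atpH* was at 19.9, 14.0 and 13.4 in mock and 16.0, 15.7 and 17.3 in 4mer arrays. Mock replicate 1 was the highest of the 6, and the log2 fold change of 0.08 (adjusted p = 0.883) became 0.26 without it (adjusted p = 0.0782). *atpI* was at 1.26, 1.67 and 1.97 in mock and 1.86, 2.31 and 2.72 in 4mer arrays, with overlapping groups (log2 fold change 0.50, and 0.33 without mock replicate 1, adjusted p = 0.388 and 0.337). The 2 genes of the separate *atpB* and *atpE* cluster, for the beta and epsilon subunits, had log2 fold changes of -0.06 and -0.10 (adjusted p = 0.932 and 0.859), and 0.15 and 0.09 without mock replicate 1 (adjusted p = 0.450 and 0.597). The log2 fold changes of the 6 subunits thus ran from -0.10 to 0.67 with all arrays and from 0.09 to 0.49 without mock replicate 1.

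**Figure D2:**
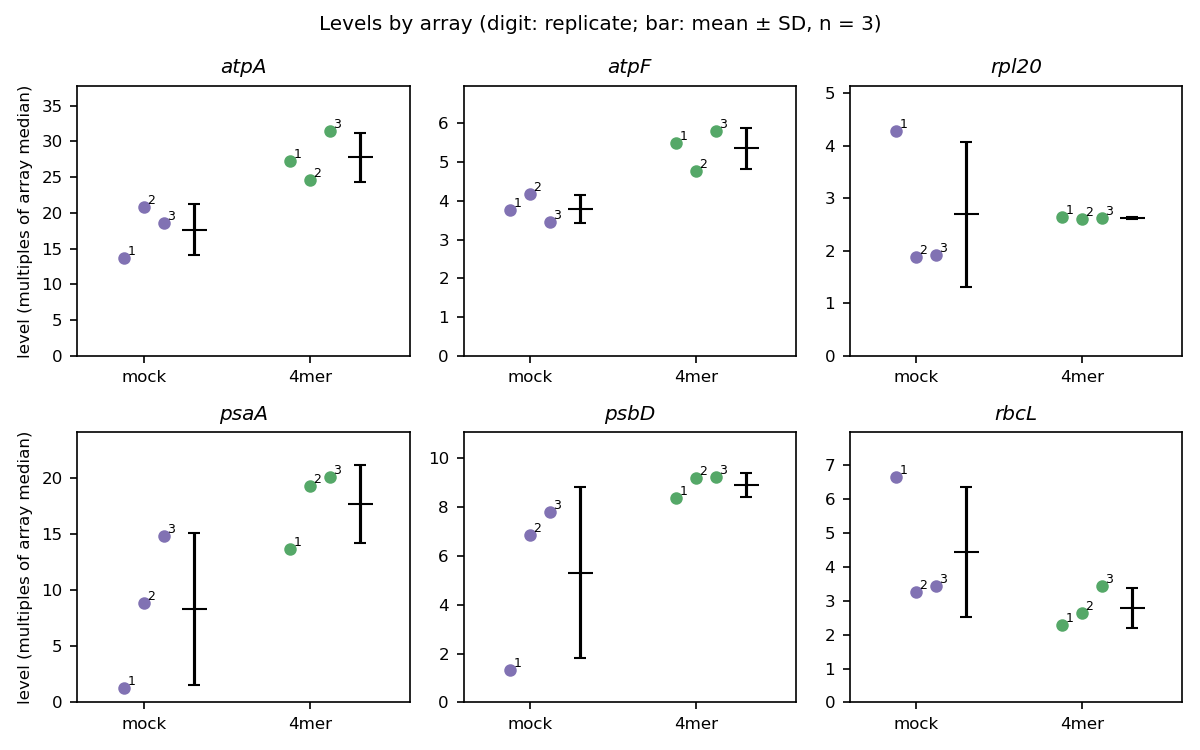
Levels (multiples of the array median) of *atpA*, *atpF*, *rpl20*, *psaA*, *psbD* and *rbcL* in each array; points are arrays with their replicate number, and bars are mean ± SD (n = 3). In *atpA* and *atpF* all 4mer arrays lie above all mock arrays, while in *rpl20*, *psaA*, *psbD* and *rbcL* mock replicate 1 lies far from mock replicates 2 and 3.

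Photosystem I uses light to drive electrons to ferredoxin, and 5 of its genes were measured, 4 of them higher and 1 lower. *psaA*, which encodes 1 of its 2 large reaction centre proteins, was at 1.24, 8.91 and 14.8 in mock and 13.7, 19.3 and 20.1 in 4mer arrays. Mock replicate 1 was the lowest by far, and the ranges of the groups overlapped. The log2 fold change was 1.67 with a 95% interval from -0.12 to 3.46 (adjusted p = 0.464), and 0.60 without mock replicate 1 (95% interval 0.07 to 1.13, adjusted p = 0.233). *psaB*, for the partner protein and next to *psaA* on the chromosome, was at 67.9, 41.4 and 46.1 in mock and 51.8, 47.2 and 55.8 in 4mer arrays. There mock replicate 1 was the highest array. Its log2 fold change was 0.03 (adjusted p = 0.973), and 0.24 without mock replicate 1 (adjusted p = 0.196). *psaC*, for the subunit that carries the terminal iron-sulfur clusters, was at 1.04 in mock replicate 1 and between 4.04 and 5.48 in the other 5 arrays, and its log2 fold change went from 0.74 to 0.02 without that array.

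The small photosystem I subunits *psaI* and *psaJ* were above 10 times the array median in every array. *psaI* was at 30.7 in mock replicate 1, at 22.3 and 22.5 in the other mock arrays and between 22.6 and 25.3 in the 4mer arrays. Without mock replicate 1 the log2 fold change turned from -0.06 to 0.09 (adjusted p = 0.907 and 0.455). *psaJ* was at 16.8, 22.4 and 20.1 in mock and 20.9, 24.2 and 25.7 in 4mer arrays, with a log2 fold change of 0.26, and 0.15 without mock replicate 1 (adjusted p = 0.501 and 0.471). Without mock replicate 1 all 5 genes of the group were thus higher, by a median of 0.15.

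Photosystem II splits water, and 14 of its 15 measured genes were higher with all arrays and all 15 without mock replicate 1. Their median log2 fold changes were 0.26 and 0.18. *psbD*, for the D2 reaction centre protein, was at 1.33, 6.85 and 7.77 in mock and 8.35, 9.19 and 9.20 in 4mer arrays. The groups lay apart, yet the distance rested largely on mock replicate 1, since the log2 fold change of 1.11 (adjusted p = 0.511) became 0.29 without it (95% interval 0.12 to 0.46, adjusted p = 0.108). *psbC*, for the inner antenna protein CP43, follows *psbD* on the chromosome and was at 23.6, 28.2 and 30.02 in mock and 31.0, 32.5 and 35.6 in 4mer arrays. The groups did not overlap with or without mock replicate 1, and the log2 fold changes were 0.28 and 0.18 (adjusted p = 0.435 and 0.238). *psbN*, for a small protein that in tobacco is needed to assemble the complex, was at 0.595, 1.46 and 2.18 in mock and 2.01, 2.65 and 2.62 in 4mer arrays, a log2 fold change of 0.96 (adjusted p = 0.430) that became 0.43 without mock replicate 1 (adjusted p = 0.283).

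The photosystem II gene best known for its light response, *psbA* for the D1 protein, had overlapping groups. It was at 2.97, 4.03 and 4.39 in mock and 3.70, 5.79 and 4.70 in 4mer arrays, a log2 fold change of 0.31 (95% interval -0.13 to 0.75, adjusted p = 0.569) that became 0.15 without mock replicate 1 (adjusted p = 0.705). *psbM*, for a small subunit at the dimer interface, was at 105.8 in mock replicate 1 and between 55.01 and 70.1 in the other 5 arrays, and its log2 fold change turned from -0.13 to 0.16 without mock replicate 1 (adjusted p = 0.871 and 0.446).

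The remaining photosystem II genes split by how far mock replicate 1 stood from the rest. In the *psbB* cluster, *psbB* for the inner antenna protein CP47 was at 1.32, 3.18 and 4.32 in mock and 3.22, 5.23 and 4.43 in 4mer arrays, and its log2 fold change of 0.68 became 0.18 without mock replicate 1 (adjusted p = 0.551 and 0.701). The adjoining *psbT*, for a small subunit, ran in parallel at 1.22, 2.37 and 3.40 in mock and 2.47, 4.17 and 3.33 in 4mer arrays, with log2 fold changes of 0.60 and 0.20 (adjusted p = 0.551 and 0.710). *psbH*, for a small phosphorylated subunit of the same cluster, was not low in mock replicate 1, at 21.0 beside 19.5 and 24.0 in the other mock arrays, and 23.5, 25.6 and 26.6 in 4mer arrays. Its log2 fold changes of 0.24 and 0.22 (adjusted p = 0.458 and 0.275) therefore hardly depended on that array.

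Of the cluster for cytochrome b559 and 2 small subunits, *psbE* was at 8.79 in mock replicate 1 and between 23.4 and 28.5 in the other 5 arrays, while *psbF*, its partner in the cytochrome, was at 23.9 and between 33.5 and 38.9. The log2 fold change of *psbE* went from 0.60 to 0.11, and that of *psbF* from 0.26 to 0.08 (adjusted p of at least 0.531 in each case). *psbL* and *psbJ*, the small subunits, had 0.11 each with all arrays, and 0.08 and 0.02 without mock replicate 1. *psbI* and *psbZ*, by contrast, were highest in mock replicate 1, at 26.1 and 37.2. Without it both had every 4mer array above the mock arrays, with log2 fold changes of 0.22 and 0.18 (adjusted p = 0.257 and 0.178).

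The cytochrome b6f complex passes electrons between the photosystems, and 5 of its 6 measured genes were higher. *petG*, for a small subunit, was at 0.678, 0.869 and 0.978 in mock and 1.199, 1.03 and 1.53 in 4mer arrays. Mock and 4mer arrays did not overlap, and the log2 fold change was 0.57 (adjusted p = 0.345), and 0.42 without mock replicate 1 (adjusted p = 0.259). *petL*, for another small subunit next to *petG*, was at 26.7, 17.7 and 17.6 in mock and 22.3, 20.4 and 23.6 in 4mer arrays. Its log2 fold change of 0.12 (adjusted p = 0.814) became 0.32 without mock replicate 1 (95% interval 0.17 to 0.48, adjusted p = 0.0616). For *petB*, cytochrome b6, it was 0.09 and 0.13 (adjusted p = 0.805 and 0.461), and for *petA*, cytochrome f, -0.13 and -0.01 (adjusted p = 0.736 and 0.942).

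The NDH complex returns electrons from ferredoxin to the plastoquinone pool, and 9 of its 10 measured genes were higher both with and without mock replicate 1. *ndhG* had the smallest p of the group with all arrays, at 1.33, 1.35 and 1.46 in mock and 1.57, 1.65 and 1.76 in 4mer arrays. These groups did not overlap, and the log2 fold change was 0.27 (95% interval 0.04 to 0.50, adjusted p = 0.379), and 0.25 without mock replicate 1 (adjusted p = 0.226). *ndhC* was at 40.3, 22.1 and 24.4 in mock and 28.4, 26.8 and 30.9 in 4mer arrays. Its log2 fold change of 0.04 became 0.30 without mock replicate 1 (95% interval 0.13 to 0.47, adjusted p = 0.0979). *ndhH* was at 0.284, 1.03 and 1.16 in mock and 1.18, 1.34 and 1.14 in 4mer arrays, and its log2 fold change went the other way, from 0.80 to 0.15 (adjusted p = 0.557 and 0.558).

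Within the *ndhC*, *ndhK* and *ndhJ* cluster the genes differed. *ndhK* was at 4.77, 2.21 and 2.65 in mock and 2.85, 3.18 and 3.14 in 4mer arrays, so that its log2 fold change of 0.01 became 0.34 without mock replicate 1 (95% interval 0.12 to 0.56, adjusted p = 0.133). *ndhJ* was at 2.70, 3.18 and 3.95 in mock and between 3.00 and 3.78 in 4mer arrays, and was the 1 gene of the complex that was lower without mock replicate 1, with log2 fold changes of 0.09 and -0.04 (adjusted p = 0.8496 and 0.907). *ndhD* and *ndhA*, from the cluster that runs from *ndhD* to *ndhH*, lay wholly apart between the groups. *ndhD* was at 8.77, 23.2 and 23.5 in mock and 23.8, 25.3 and 26.6 in 4mer arrays, and *ndhA* at 12.9, 20.0 and 20.2 in mock and 21.0, 22.0 and 23.2 in 4mer arrays. With all arrays their log2 fold changes were 0.58 and 0.35 (adjusted p = 0.555 and 0.488), and without mock replicate 1 they were 0.11 and 0.13 (adjusted p = 0.371 and 0.277).

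Of 15 genes for plastid ribosomal proteins, 8 were higher and 7 lower with all arrays, with a median log2 fold change of 0.02, and 11 were higher and 4 lower without mock replicate 1, with a median of 0.14. *rpl20*, for a protein of the large subunit, was at 4.28, 1.88 and 1.92 in mock and 2.65, 2.61 and 2.63 in 4mer arrays. The 4mer replicates nearly coincided and lay between mock replicate 1 and the other mock arrays. With all arrays the log2 fold change was 0.08 (95% interval -0.58 to 0.73, adjusted p = 0.943), and without mock replicate 1 it was 0.47 (standard error 0.06, 95% interval 0.32 to 0.62, adjusted p = 0.0210). This call rests on 2 mock arrays. *rps2*, for a protein of the small subunit at the head of the *atpI* cluster, was at 18.1, 16.2 and 21.8 in mock and 21.9, 23.6 and 24.2 in 4mer arrays, with log2 fold changes of 0.32 and 0.30 (adjusted p = 0.386 and 0.230). *rps18*, another gene of the small subunit, hardly varied, at 14.7 to 15.5 in mock and 15.0 to 15.7 in 4mer arrays, and the 95% interval of its log2 fold change ran from -0.14 to 0.21, and from -0.10 to 0.12 without mock replicate 1.

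Some ribosomal protein genes had mock replicate 1 at the bottom and others had it on top. *rpl33* was at 22.5, 27.9 and 32.1 in mock and 34.7, 34.0 and 34.9 in 4mer arrays, and *rpl22* at 16.5, 22.8 and 22.4 in mock and 25.9, 24.3 and 24.6 in 4mer arrays. Neither overlapped between the groups, and their log2 fold changes were 0.35 and 0.29 with all arrays (adjusted p = 0.406 and 0.463) and 0.21 and 0.14 without mock replicate 1 (adjusted p = 0.172 and 0.206). *rpl16* was at 60.7, 31.6 and 30.5 in mock and 34.0, 32.2 and 36.5 in 4mer arrays. The log2 fold change turned from -0.18 to 0.14 without mock replicate 1 (adjusted p = 0.813 and 0.313). *rps3*, beside it on the chromosome, went from 0.02 to 0.19 (adjusted p = 0.973 and 0.124). *rps15* was at 2.78 in mock replicate 1 and between 1.34 and 1.54 in the other 5 arrays, and its log2 fold change went from -0.33 to -0.00432 (adjusted p = 0.647 and 0.988). The 4 ribosomal genes that were lower without mock replicate 1 were *rps4*, *rps14*, *rps15* and *rps16*, all for proteins of the small subunit, with log2 fold changes between -0.17 and -0.00432, and between -0.33 and -0.10 with all arrays.

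Among the genes of transcription and of metabolism both directions occurred. Of the 4 genes of the plastid RNA polymerase, 2 were higher and 2 lower in either setting. *rpoC2* had a log2 fold change of 0.24, with an adjusted p of 0.607, and 0.06 without mock replicate 1, *rpoC1* had 0.10 and -0.09, and *rpoA* had -0.20 and 0.03. In tobacco the nuclear-encoded polymerase is known to read *accD* and the *rpoB* cluster, and of the 4 such genes measured 3 were higher with all arrays and 1 without mock replicate 1, with medians of 0.13 and -0.19. *accD*, for a subunit of the acetyl-CoA carboxylase of fatty acid synthesis, was at 2.296, 6.33 and 5.996 in mock and 4.32, 5.23 and 5.36 in 4mer arrays. Its log2 fold change turned from 0.16 (adjusted p = 0.896) to -0.32 (95% interval -0.54 to -0.10, adjusted p = 0.151), and without mock replicate 1 all 4mer arrays were below the mock arrays.

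*rbcL*, next to *accD* and encoding the large subunit of the carbon-fixing enzyme Rubisco, was at 6.64, 3.24 and 3.43 in mock and 2.28, 2.65 and 3.42 in 4mer arrays. Mock replicate 1 was the highest, and the other arrays of the groups overlapped. Its log2 fold change was -0.61 (95% interval -1.23 to 0.01, adjusted p = 0.448), and -0.28 without mock replicate 1 (adjusted p = 0.393). *clpP*, for a protease subunit, was at 46.0, 37.4 and 38.2 in mock and between 38.0 and 38.1 in the 4mer arrays, with a log2 fold change of -0.09, and 0.01 without mock replicate 1 (95% interval -0.10 to 0.12). *cemA*, for an envelope membrane protein, had log2 fold changes of 0.10 and 0.22 (adjusted p = 0.801 and 0.114). *ycf3* and *ycf4*, whose products help to assemble photosystem I in tobacco and Chlamydomonas, had log2 fold changes of -0.29 and 0.55 with all arrays and -0.03 and 0.10 without mock replicate 1 (adjusted p of at least 0.563 in each case). For 9 genes, *psbK*, *petN*, *ndhE*, *rpl14*, *rpl32*, *rpl36*, *rps19*, *matK* and *ccsA*, only the range is given. Their log2 fold changes lay between -0.09 and 0.48 with all arrays (adjusted p of at least 0.611). All 9 were higher without mock replicate 1, by 0.04 to 0.18 (adjusted p of at least 0.260). Of the genes below the array median in every array, *rpoB* was lower in both settings, at -0.15 and -0.28 without mock replicate 1. *ndhF* had 0.30 and 0.09 in these settings, and *petD* 0.14 and 0.04. The adjusted p of *rpoB*, *ndhF* and *petD* was at least 0.739 in each case.

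**Figure D3:**
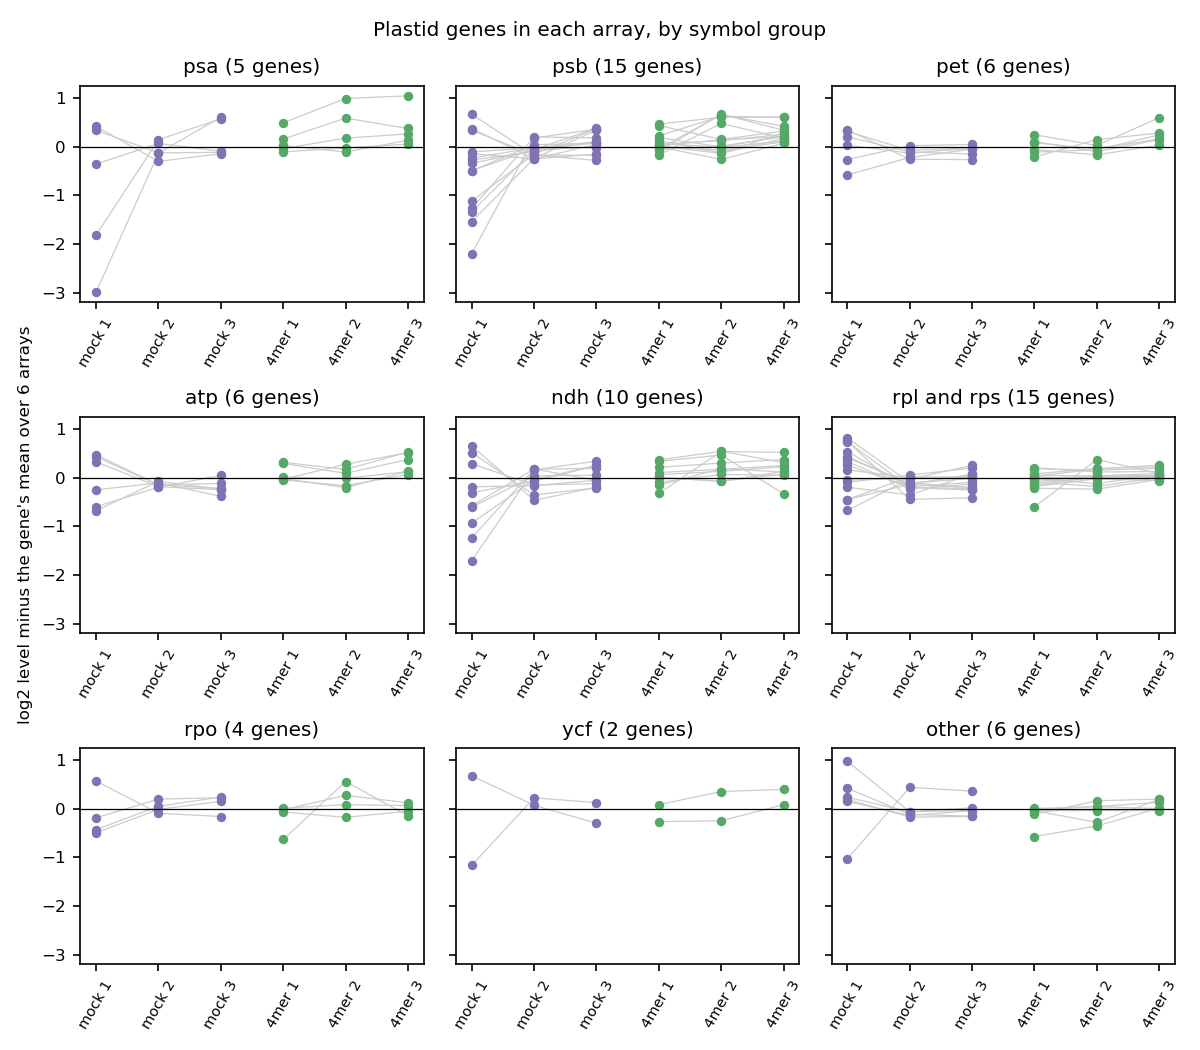
Log2 level of each plastid gene minus its mean over the 6 arrays, by symbol group; points are genes, grey lines join a gene within a group of arrays, violet is mock and green 4mer. Mock replicate 1 spreads furthest, both upward and downward, and is the lowest array in 33 of the 69 genes and the highest in 29.

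Genes that lie side by side departed in mock replicate 1 in the same direction in some cases and in opposite directions in others. Relative to the mean log2 level of the other 5 arrays, *psaA* was lower by 3.57 in mock replicate 1 (-3.57) while its neighbour *psaB* was higher by 0.49. *psbD* was at -2.63 and the following *psbC* at -0.41. *ndhH* was at -2.04, the adjoining *ndhA* at -0.72 and *ndhI*, beyond it, at 0.34. In all, 12 genes were more than 1 log2 unit below the other arrays and 1, *rbcL*, more than 1 above, at 1.16. Of 68 pairs of measured genes that follow each other on the chromosome, 37 departed in opposite directions and the other pairs in the same direction. In 25 pairs the difference was over 1 log2 unit. For none of these counts was a share over other probe sets taken, so they are not read as a trait of plastid genes.

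**Figure D4:**
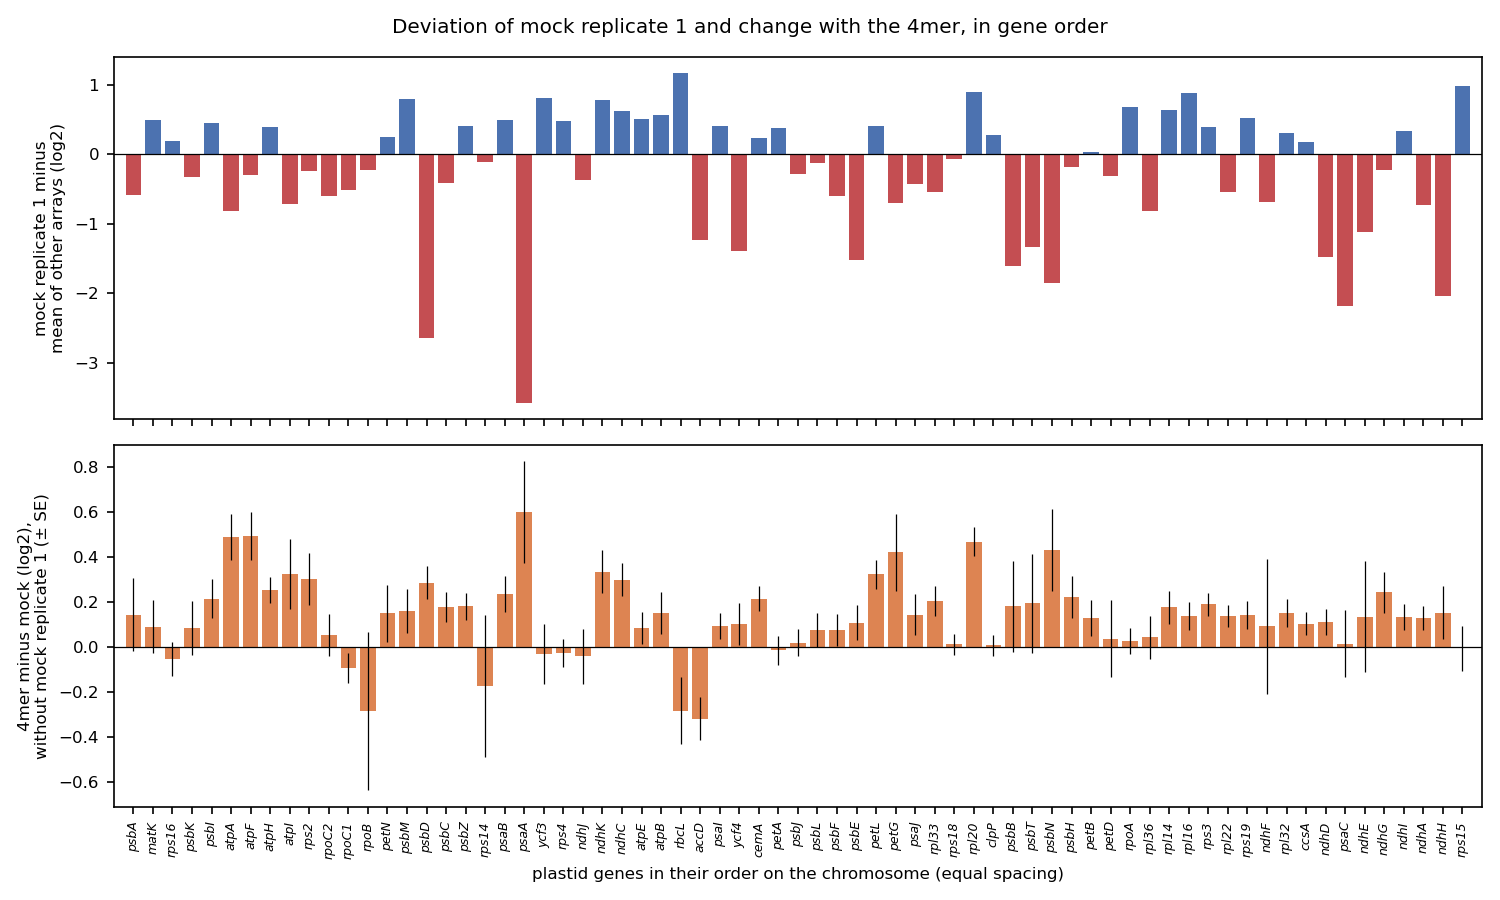
Plastid genes in their order on the chromosome, equally spaced. Top, log2 level in mock replicate 1 minus the mean of the other 5 arrays, from -3.57 (*psaA*) to 1.16 (*rbcL*); bottom, log2 fold change (4mer minus mock) without mock replicate 1, with its standard error, from -0.32 (*accD*) to 0.60 (*psaA*).

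Nuclear genes of the same complexes were set beside them, as far as they are named on the array. Of 6 genes of photosystem II and its antenna, 5 were higher with all arrays, with a median log2 fold change of 0.05, and 6 without mock replicate 1, with a median of 0.21. *LHCB4.2*, an antenna protein, had 0.16 and 0.25 (adjusted p = 0.630 and 0.114) and *PSBY* 0.12 and 0.22 (adjusted p = 0.747 and 0.0945). Of 25 names listed for photosystem I and its antenna, only *PSAN* and *PSAE-1* are named on the array. They had 0.03 and 0.01 with all arrays and 0.22 and 0.16 without mock replicate 1. *ATPC1* and *ATPC2*, for the gamma subunit of the ATP synthase, had -0.04 and -0.19, and 0.13 and -0.01 without mock replicate 1. The summed level of the 6 photosystem II genes was 257.6, 194.7 and 194.4 in mock and 231.8, 210.7 and 233.1 in 4mer arrays, so that here as in *psaB* or *ndhC* mock replicate 1 was the highest and the other mock arrays the lowest. None of these nuclear genes passed the test in either setting.

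Other lists held few or mixed genes. Of 3 nuclear NDH genes, 2 were higher, with a median log2 fold change of 0.07, and 3 without mock replicate 1, with a median of 0.11. Of 12 genes of plastid RNA processing and turnover, 5 were higher and 7 lower, with a median of -0.01 with and without mock replicate 1. *PAC* was the only gene named on the array among 44 names listed for plastid transcription. Its log2 fold change was -0.37 (adjusted p = 0.484), and -0.17 without mock replicate 1. Of 16 genes of the mitochondrial chromosome, matched by the name in the array's annotation, 10 were higher and 6 lower, with medians of 0.05 in both settings, and the summed level was 17.2 to 18.8 in mock and 17.7 to 20.0 in 4mer arrays. No gene of these lists passed.

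Markers of green shoot and of root tissue were few. Of the shoot markers, the Rubisco activase gene *RCA* is the only one named, at 67.4, 48.2 and 47.8 in mock and 54.98, 48.7 and 54.7 in 4mer arrays. Mock replicate 1 was again the highest, and the log2 fold change turned from -0.03 with overlapping groups (adjusted p = 0.966) to 0.14 without overlap when it was left out (adjusted p = 0.343). Of the root markers, 3 are named, *PYK10*, *EXPA7* and *EXPA18*, with a summed level of 51.3 to 78.6 in mock and 52.2 to 61.5 in 4mer arrays, and none was at 0. Most of this sum was *PYK10*, at 47.8 to 76.2 in mock and 49.6 to 58.7 in 4mer arrays. With all arrays *EXPA18* was lower in every 4mer array than in any mock array, and the other 2 overlapped. For *EXPA18* the log2 fold change was -0.44, and -0.49 without mock replicate 1 (adjusted p = 0.234 and 0.0755). The other 2 turned direction, *EXPA7* from 0.18 to -0.19 and *PYK10* from -0.08 to 0.12 (adjusted p of at least 0.378). The part of tissue makeup in the plastid values was not tested.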

How the data were processed

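RNA of 6 seedling samples was measured on ATH1 arrays. Per the labels and methods, the authors used Affymetrix MicroArray Suite 5.0 to turn each scan into 1 signal per probe set, and this intensity, linear and not log-transformed, is what was deposited. Its trimmed mean was 496.8 to 497.4 on every array, and the target of that scaling is not given in the sources used here. Detection calls were not used, so low levels have no background limit, and 3 arrays a group limit the precision.

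As in the study's methods, signals under a floor of 0.01 took that value, and each array was scaled to its 50th percentile. Log2 values were compared in limma 3.58.1 (R 4.3.3; lmFit, eBayes with a variance trend, two-sided, no covariate, Benjamini-Hochberg adjustment across 22746 probe sets). Fold changes are differences of mean log2 levels, and standard deviations are those of unlogged levels. SAM, which the methods name without a threshold, was an alternative, as were other scalings, floors, an offset, a filter, no variance trend, a replicate block and leaving out arrays. Probe sets were named through the array's annotation and the TAIR10.1 gene table, which also gave the gene order. Of the probe sets, 13513 pair with 1 gene, 503 with several and 8730 are not listed. Figures were drawn with matplotlib 3.10.9. The scripts were tested on simulated data.

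The members and gene lists were chosen with earlier results of these data known. Named genes are the markers, in each symbol group the brightest gene and those with the smallest p with all arrays and without mock replicate 1, the 5 largest rises and falls and the 10 brightest genes; of other lists, the 2 with the smallest p. Further genes were named after their values were seen, namely *atpH*, *atpI*, *psaI*, *psaJ*, *psbA*, *psbB*, *psbC*, *psbE*, *psbH*, *psbI*, *psbJ*, *psbL*, *psbT*, *psbZ*, *ndhA*, *ndhD*, *ndhF*, *ndhJ*, *ndhK*, *petD*, *rpl22*, *rpl33*, *rpoB*, *rps3*, *rps4*, *rps14*, *rps16*, *rps18*, *accD* and the 9 given by their range, and the genes with 2 entries in the table. Plastid sequences were not used here.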

Additional observations from a re-analysis of the deposited data

How the results depend on the processing

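The number of probe sets that passed was 23, and 10 with normalized values below 0.25 set to 0.25, 45 among probe sets with a mean of at least 0.25, 2 without a variance trend, 4 with SAM, and 0 to 338 when 1 array was left out, the highest without mock replicate 1. With quantile normalization leaving out mock replicate 1, 356 passed, 5 of them plastid genes. The number of plastid genes that passed was 0 with every planned setting that keeps all arrays, and 0 to 1 when 1 array was left out. The number of plastid genes with a higher mean was 50 of 69, 50 to 53 with the other settings on all arrays and 40 to 58 when 1 array was left out (40 without mock replicate 2 or 3), and the median log2 fold change was 0.06 to 0.14 when 1 array was left out. The number of plastid genes higher at an unadjusted p under 0.05 was 9, and 5 with the floor of 0.25, 4 without a variance trend, 17 with the replicate block and 2 to 26 when 1 array was left out. Shares of all probe sets are given above only for all arrays and without mock replicate 1. The other counts show only how this number moved. The median was above 0 in each of these settings. No gene has several probe sets, so their mean changed nothing. The samples share replicate numbers only: arrays with the same number did not deviate together (correlations of -0.04, -0.05 and -0.01 over 17289 probe sets). With the replicate number as a block 0 probe sets passed, none of them plastid.

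Some named genes with small changes turned direction when 1 array was left out. The log2 fold change ran from -0.0916 to 0.24 for *rpoC1*, -0.31 to 0.16 for *psbM*, -0.12 to 0.24 for *psaB*, -0.13 to 0.30 for *ndhC*, -0.20 to 0.0851 for *atpE*, -0.19 to 0.15 for *atpB*, -0.13 to 0.47 for *rpl20*, -0.14 to 0.00887 for *clpP*, -0.33 to 0.0280 for *rpoA*, -0.36 to 0.14 for *rpl16* and -0.0836 to 0.14 for *ndhI*. For *ndhI* it was -0.00517 with all arrays, 0.0702 with quantile normalization and 0.0331 without division by the array median. *atpA* ran from 0.49 to 0.79 and *atpF* from 0.43 to 0.58, always upward. The cause of these differences was not tested.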

Other observations

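The 7 plastid genes with 2 entries in the gene table were read by 8 probe sets that pair with both entries, and none passed the test (limma, with or without mock replicate 1). *rpl23*, for a ribosomal protein of the large subunit, was at 34.4, 34.6 and 34.2 in mock and 41.2, 34.7 and 38.3 in 4mer arrays. The groups did not overlap, and the log2 fold change was 0.14 (95% interval -0.10 to 0.39, adjusted p = 0.630). Mock replicate 1 lay between the other 2 mock arrays here. In *rps7* it was the highest of all, at 52.3 against 29.7 to 35.3 in the other 5 arrays, and the log2 fold change went from -0.14 to 0.13 without it. *ycf1*, for a protein of the inner envelope, was at 20.7, 15.5 and 17.1 in mock and 14.0, 14.7 and 15.8 in 4mer arrays, and its log2 fold changes were -0.25 with all arrays and -0.14 without mock replicate 1 (adjusted p = 0.467 and 0.359). *ycf2* stayed below 0.26 in every array.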
